A study of Mus musculus with 12 samples.

Results

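Ccnb2, Skp2, Skp1a, Mcm4, Mcm7, Rfc1, Cdkn1c and Gadd45b are 8 mouse genes of cell cycle entry and DNA replication, and their RNA was followed here through immunoprecipitation of RBM25, an RNA-binding protein that regulates splicing. The members were taken by gene name from 8 deposited lists of binding sites, which name 1000 genes in all and hold 4046 sites. Together the 8 members had 29 entries in these lists at 13 distinct sites. Each entry gives a site on an mRNA with a fold, the ratio of the signal at the site to the background of the authors' peak caller.

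The libraries came from inner ear organoids, grown from cochlear epithelium of mice at postnatal days 1 to 2. All groups shared the same culture: expansion for 8 to 10 days with EGF, bFGF, IGF and 3.5 μM CHIR99021, which activates Wnt signalling, then differentiation for 7 to 8 days with 3 μM CHIR99021 and 5 μM LY411575, an inhibitor of Notch signalling, then 9 to 10 days with low EGF and bFGF. Organoids received a control lentivirus (genotype label WT, called control here) or a lentivirus for Rbm25 knockdown (genotype label Rbm-KO, called depleted here). For each condition 2 numbered sets of libraries were made, and a set held a precipitate with RBM25 antibody (IP) and one with IgG, the control antibody, so that the 8 lists form 4 groups of 2. The virus was given to whole organoids and the share of cells it reached is not stated, the titles say KO where the treatment says knockdown, and nothing in the labels places the numbered sets in separate animals, so any spread between them may be technical. In bulk precipitates fewer cells of a type and less RNA per cell cannot be told apart.

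The control IP lists held 594 and 593 sites and the control IgG lists 442 and 430. The depleted IP libraries stood apart from each other, with 813 sites in the first and 165 in the second, and the depleted IgG lists held 498 and 511. A false discovery rate of 100% was given to 11.9 to 22.4% of the sites in the IP lists. In the IgG lists it was given to 43.8 to 86.7%. The lowest rate of any site was 16.19% in control IP 1 and 17.35% in control IP 2. It was 1.76% in depleted IP 1, 25.51% in depleted IP 2 and 8.33 to 26.88% in the IgG lists. Rbm25 itself, the targeted gene, was named with 2 sites (highest fold 1873) by the library labelled depleted IP 1 and by no other list. A site does not measure the level of the transcript, so the depletion could not be checked, and depleted is used throughout as the word of the labels. No read counts were used, so depth is unknown and a gene that is not listed cannot be called unbound. Of 8 hair cell markers only Barhl1 was listed, in depleted IP 1 and in all 4 IgG lists, and of 8 supporting cell markers only Otog, in both control IgG lists. Of 6 mesenchyme markers 2 were listed in each control IP, 3 in each control IgG, 3 in depleted IP 1 and 0 in depleted IP 2 and depleted IgG. Of the 3 glial markers Sox10 was listed, in depleted IP 1 and depleted IgG 1, and no neuronal, immune, endothelial or melanocyte marker was listed. The control IP lists thus named no marker of hair or supporting cells.

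A cell enters S phase when cyclin-dependent kinases are released from inhibitors such as p57, the product of Cdkn1c. The SCF ubiquitin ligase, in which Skp1 joins the cullin to an F-box protein such as Skp2, marks such inhibitors for destruction. At origins the Mcm complex, with Mcm4 and Mcm7 among its subunits, unwinds the DNA, and Rfc1 is the large subunit of the clamp loader that places PCNA on it. Cyclin B2, from Ccnb2, acts later, at entry into mitosis, and Gadd45b is a stress-induced gene whose product can hold the cycle in arrest. In the mammalian cochlea division of the sensory progenitors stops before birth, with p27, a relative of p57, among the inhibitors involved, and supporting cells of the newborn organ keep some capacity to divide in culture.

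The control comparison asked which transcripts the RBM25 antibody recovered beyond IgG. Each control IP list held the same 7 members, all but Cdkn1c, and each control IgG list held none. All 7 thus met the rule of presence in each IP list and absence from each IgG list, whereas 39.0% of the 649 genes with a site in the 4 control lists had this pattern. The number of members listed was 7 and 7 with IP and 0 and 0 with IgG, with a two-sided exact permutation p of 0.333, the smallest that 2 against 2 libraries allow. The reverse pattern, both control IgG lists and neither IP list, held 0 members and 19.0% of the genes. The depleted IgG lists held no member either, although 49.9% of the 1000 genes had a site in at least 1 of the 4 IgG lists. The 649 and the 1000 genes include genes that no control IP list named. Of the 416 genes in both control IP lists, where all 7 members were, 54.6% were in no IgG list. The members were named with these lists known, so the counts describe them and test nothing.

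After depletion the 7 members separated. Skp1a, Mcm4, Rfc1 and Gadd45b were in neither depleted IP list, while Ccnb2, Skp2 and Mcm7 were in depleted IP 2 and absent from depleted IP 1. Against all genes, 27.8% of the 892 genes with an IP site were named by each control IP list and by no depleted one. Of the 416 genes in both control IP lists, 59.6% were in neither depleted list, 30.5% were in depleted IP 1 and 11.5% in depleted IP 2, against 4, 0 and 3 of the 7 members. No member was in both depleted IP lists and in neither control IP list, a pattern that 0.561% of the 892 genes had. Cdkn1c was listed in depleted IP 1 alone, as were 38.5% of the 540 genes of that library. No member was in both depleted IP lists and in neither depleted IgG list, a pattern that 1.09% of 735 genes had.

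The number of members listed was 7 and 7 in control IP and 1 and 3 in depleted IP, a mean of 7 ± 0 against 2 ± 1.41 (SD, n = 2 each, two-sided exact permutation p = 0.333, the smallest possible). Here too the members were named with the lists known, so the difference and its p-value describe them and test nothing. The groups did not overlap, but depleted IP 2 was also the shortest list and held a member in 3 of 110 genes, against 7 of 430 and 432 genes in the control IP lists and 1 of 540 in depleted IP 1. The longest list, depleted IP 1, held the fewest members. Whether list length bears on these counts was not tested. Without depleted IP 2 the control IP members not listed in depleted IP numbered 7 in place of 4. Without depleted IP 1 the members listed in depleted IP and not in depleted IgG were 3, and without depleted IP 2 they were 1, in place of 0.

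**Figure D1:**
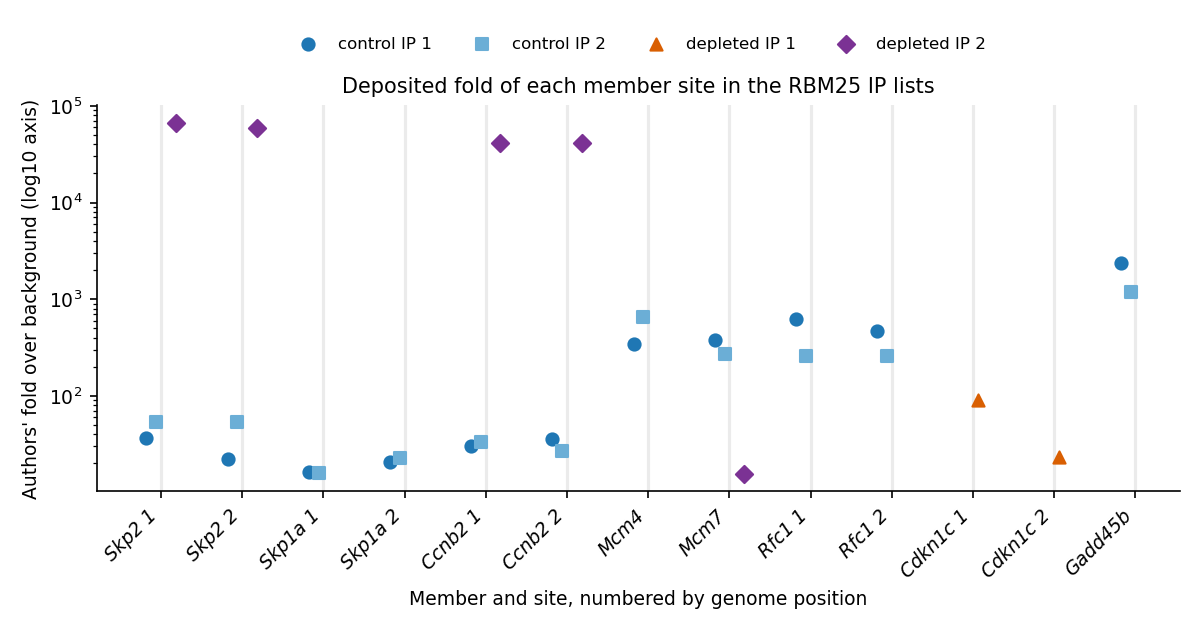
Fold of every member site (x axis, numbered by genome position) over the background of the authors' peak caller, on a log10 axis, with 1 point per IP library and no point where the site was not listed. The Skp2 and Ccnb2 sites lie between 22.0 and 53.26 in the control libraries and between 41386 and 66494 in depleted IP 2, and Cdkn1c has points in depleted IP 1 alone.

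Of the SCF genes, Skp2 came first in the order of depleted IP 2 and Skp1a was not listed there. Skp2 encodes the F-box protein that recognises the inhibitor p27, and it had 2 sites on chromosome 15, at chr15:9122245-9122335 and chr15:9125060-9125097. At the first site the fold was 36.67 in control IP 1, 53.26 in control IP 2 and 66494 in depleted IP 2. At the second it was 22.0, 53.26 and 58743. These sites had the highest and the next highest fold among the 165 sites of depleted IP 2, whereas 14.1 to 19.5% of the sites of the control lists had lower folds than theirs. The control entries of Skp2 carried a false discovery rate of 100%, against 25.51% in depleted IP 2, the lowest rate of that list. Skp2 was not listed in depleted IP 1.

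Skp1a, named Skp1 in the gene table, is the adaptor that links F-box proteins to the cullin. Its sites lay at chr11:52232037-52232118 and chr11:52236837-52236873, with identical bounds in both control IP lists. The folds were 16.2 and 16.04 at the first and 20.81 and 22.55 at the second, the lowest of the members in control IP, and the replicates differed by factors of 1.01 and 1.08. The false discovery rate was 16.21% in control IP 1 and 17.35% in control IP 2. These low folds thus had a lower rate than the higher folds of Skp2. The lowest rates of these lists were 16.19% and 17.35%. Mcm4, Mcm7, Rfc1 and Gadd45b had the same rates as Skp1a in the control IP lists. Neither depleted IP list named Skp1a. The first site began 42 bases after an annotated transcript start of Skp1, and its opening bases are the end of the RefSeq window around that start, shown because it is the only window among those of the members in that table that reaches a site (GRCm38.p6, chr11:52231745-52232044, plus strand, capitals for the 8 bases shared with the site).
Skp1a: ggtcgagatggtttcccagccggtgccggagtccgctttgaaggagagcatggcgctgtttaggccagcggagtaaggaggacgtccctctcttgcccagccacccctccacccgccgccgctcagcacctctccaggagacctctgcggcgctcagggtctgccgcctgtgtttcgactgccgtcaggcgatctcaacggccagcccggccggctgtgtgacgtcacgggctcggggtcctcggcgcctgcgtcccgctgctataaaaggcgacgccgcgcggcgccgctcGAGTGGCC

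Ccnb2, whose cyclin drives the G2 to M transition with Cdk1, had sites at chr9:70413102-70413178 and chr9:70418794-70418845, 5615 bp apart. The folds at the first were 30.0 and 33.29 with control IP, and depleted IP 2 gave 41386, where the site ended 5 bp further on. At the second they were 36.08 and 26.63 in control IP and 41548 in depleted IP 2. Both control lists gave these sites a false discovery rate of 100%, with 13.2 to 19.4% of sites at lower folds. In depleted IP 2 they ranked 4 and 5 of 165. Ccnb2 and Skp2 therefore shared presence, low place in control IP and high place in depleted IP 2. Their sites, a pair of similar fold in each gene, took 4 of the 5 highest folds of the second depleted library. The remaining one, ranked 3, belonged to Cep85, a centrosomal gene (fold 42559).

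Ccnb2 and Skp2 both ranked high in 1 library, depleted IP 2, and were chosen for a reading of promoters on that ground. The RefSeq windows from 250 bases before to 50 after their transcript starts were read for motifs of cell cycle promoters. A link between motifs and folds was not tested. The motifs were the CCAAT box (CCAAT), the cell cycle homology region (TTTGAA, and TTCGAA as a variant) and 3 E2F forms (TTTGGCGC, TTTCCCGC and TTTCGCGC), each on both strands. The matches found in these windows did not overlap each other. The Ccnb2 window, at chr9:70421505-70421804, held 3 CCAAT boxes spaced 33 and 33 bp apart and 2 TTTGAA matches, 1 of them 4 bases after the start. Across 32851 windows of the same length, 37.4% held a CCAAT box, 3.37% held 3 or more, and 17.9% held TTTGAA. Skp2 has windows at chr15:9155376-9155675, with 1 CCAAT box and 2 TTTGAA matches, and at chr15:9140405-9140704, with no match to any of the motifs. No E2F form was found in the windows of either gene, against 0.514%, 1.07% and 0.323% of all windows. The sequences are on the minus strand of GRCm38.p6 and are written 5′ to 3′ in the gene's sense, with motif matches in capitals. The Skp1a window shown above also held 1 TTTGAA match, not capitalised there, and Skp1a was not listed in depleted IP 2. A match is a run of letters in DNA and says nothing of the RNA sites.
Ccnb2: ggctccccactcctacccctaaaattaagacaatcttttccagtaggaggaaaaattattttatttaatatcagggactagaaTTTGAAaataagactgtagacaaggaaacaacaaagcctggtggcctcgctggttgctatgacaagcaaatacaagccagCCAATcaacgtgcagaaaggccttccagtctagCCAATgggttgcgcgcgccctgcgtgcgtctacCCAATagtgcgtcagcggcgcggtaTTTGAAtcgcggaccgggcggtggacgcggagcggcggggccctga
Skp2 window 1: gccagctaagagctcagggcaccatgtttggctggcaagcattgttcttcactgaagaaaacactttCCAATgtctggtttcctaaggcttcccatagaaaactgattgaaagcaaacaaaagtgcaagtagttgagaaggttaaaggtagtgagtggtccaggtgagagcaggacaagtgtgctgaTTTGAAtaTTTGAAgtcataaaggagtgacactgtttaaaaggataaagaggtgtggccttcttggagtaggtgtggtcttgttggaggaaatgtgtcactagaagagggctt
Skp2 window 2: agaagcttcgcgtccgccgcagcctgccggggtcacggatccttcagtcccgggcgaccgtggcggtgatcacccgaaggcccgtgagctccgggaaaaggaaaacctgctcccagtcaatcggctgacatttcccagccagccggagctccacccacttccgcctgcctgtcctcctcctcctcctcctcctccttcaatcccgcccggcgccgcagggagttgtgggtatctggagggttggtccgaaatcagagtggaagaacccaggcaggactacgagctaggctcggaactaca

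**Figure D2:**
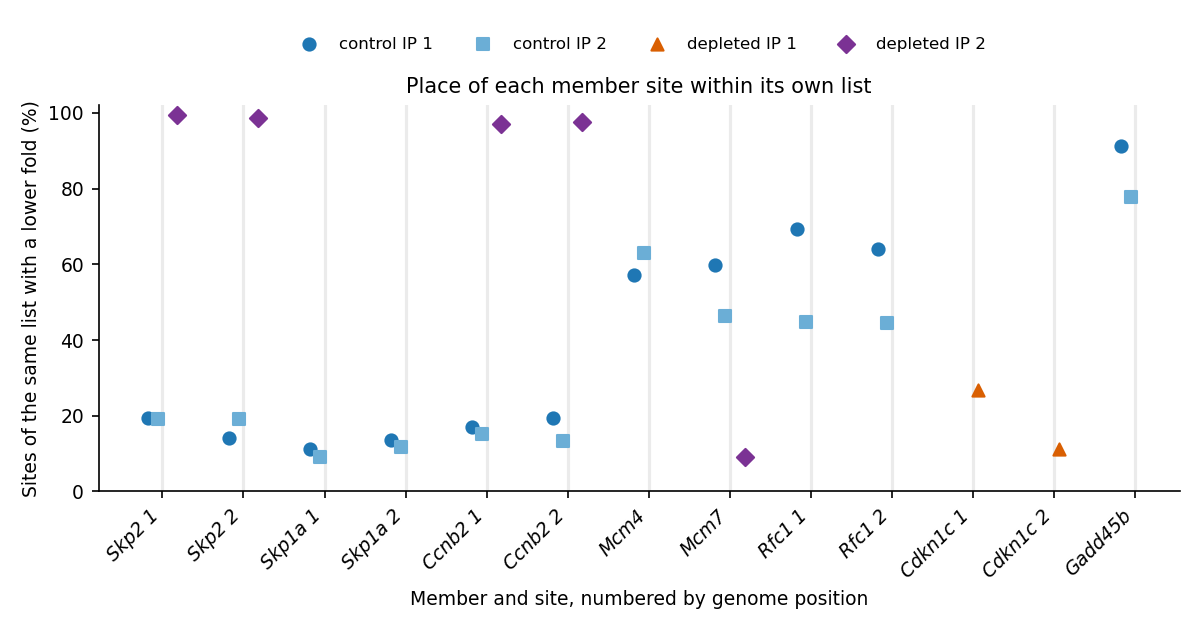
Share of the sites of the same list that have a lower fold than the member site (y axis, percent) for each member site and IP library. Skp2 and Ccnb2 lie at 97.0 to 99.4% in depleted IP 2 and at 13.2 to 19.5% in the control lists, while Mcm7 lies at 9.09% in depleted IP 2.

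The replication genes held the middle of the control lists. Mcm4 had 1 site, at chr16:15630261-15630512, with a fold of 341.18 in control IP 1 and 647.06 in control IP 2. At 252 bp it was the widest member site, and it lay 6364 bp from the lower and 6888 bp from the upper end of the gene. Between 57.1 and 63.1% of sites had lower folds, and the gene was not listed after depletion.

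Mcm7 had 1 site of 59 bp at chr5:138165052-138165110, with folds of 382.08 and 274.29 in the control lists. In depleted IP 2 the site was 55 bp wide and its fold was 15.62, with 9.09% of that list lower and a false discovery rate of 100%. Its place in depleted IP 2 was thus low, opposite to that of Skp2 and Ccnb2. The background behind the folds is not described in the labels, and folds of different lists were set side by side without a test. The site lay 469 bp from the 3′ end of the gene. Mcm7 is the host of the miR-106b, miR-93 and miR-25 cluster, and the site lay 210 bp beyond the Mir25 hairpin, 412 bp beyond Mir93 and 626 bp beyond Mir106b, counted towards the 3′ end. The mature forms from RefSeq (GRCm38.p6, minus strand of chromosome 5) are shown with their seeds, bases 2 to 8, in capitals. They are given because they lie in the interval of the gene that carries the site, and miR-93 and miR-106b share a seed. Whether they and the site lie in the same mature transcript was not examined. The lists cover mRNAs, so the miRNAs themselves were not measured here.
mmu-miR-25-3p: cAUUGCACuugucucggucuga
mmu-miR-93-5p: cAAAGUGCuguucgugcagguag
mmu-miR-106b-5p: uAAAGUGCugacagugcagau

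Rfc1 had sites at chr5:65264299-65264431 and chr5:65266102-65266216, 1670 bp apart and both beyond 90% of the length of a gene of 76766 bp. The folds were 616.62 and 258.33 at the first site and 467.5 and 256.67 at the second, higher in control IP 1 by factors of 2.39 and 1.82. Neither site was listed after depletion.

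Gadd45b had the highest fold of the members in control IP. Its site ran from chr10:80931974-80932204 in control IP 1 and from chr10:80931979-80932204 in control IP 2, ending at the last base of the gene. The fold was 2378 in the first and 1188 in the second, with 91.4% and 77.7% of sites lower. The gene was in neither depleted IP list. Cdkn1c, the inhibitor, had sites at chr7:143458349-143458586, with a fold of 90.19, and chr7:143459112-143459250, with a fold of 23.14, both in depleted IP 1 and at a false discovery rate of 1.82%. In that list 26.7% and 11.3% of sites had lower folds, and the lowest rate was 1.76%. The outermost base of the first site lay 10 bp from the lower end of a gene of 2721 bp. Cdkn1c was in no other list, so its presence rests on 1 library, the one that also listed Rbm25.

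Replicate control libraries gave the same sites. Of the 11 member sites in both control IP lists 10 had identical bounds, the exception being Gadd45b, whose starts differed by 5 bp. The larger fold exceeded the smaller by a factor of 1.01 to 2.42, with a median of 1.45, and across the 451 control sites with identical bounds the median was 1.54. By the highest fold of each gene the order in control IP 1 was Gadd45b, Rfc1, Mcm7, Mcm4, Skp2, Ccnb2 and Skp1a. In control IP 2 it was Gadd45b, Mcm4, Mcm7, Rfc1, Skp2, Ccnb2 and Skp1a. Rfc1 and Mcm4 changed places while Mcm7 stayed between them, and these genes did not differ beyond the spread of the replicates. Skp2, at 36.7 and 53.3, and Ccnb2, at 36.1 and 33.3, kept their order, although the lowest value of Skp2 lay close to the highest of Ccnb2. Of the 5 member sites in both control IP 1 and depleted IP 2, 3 had identical bounds.

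Some members had paired sites, which the choice by name did not use. Ccnb2, Skp2, Skp1a, Rfc1 and Cdkn1c each had 2 sites in every list that named them, always with consecutive peak numbers, at distances between 525 and 5615 bp. Within a pair the folds differed by a factor of 1 to 1.67 in these genes except Cdkn1c, where it was 3.9. Mcm4, Mcm7 and Gadd45b had 1 site in every list that named them. In each control IP list 4 of the 7 members were thus paired, and in control IP 1, 35.1% of all genes had 2 or more sites, and in the other IP lists 34.7 to 42.7%. The median width of member sites was 82 bp in each control IP list against 115 and 118 bp over all sites, and 55 bp against 117 bp in depleted IP 2, but 188.5 bp against 124 bp in depleted IP 1. Of the 13 distinct sites 6 were 115 to 252 bp wide, those of Mcm4, Rfc1, Gadd45b and Cdkn1c, and the other 7 were 37 to 91 bp wide. Exons and introns under the sites were not analysed here, since no transcript structure was used.

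**Figure D3:**
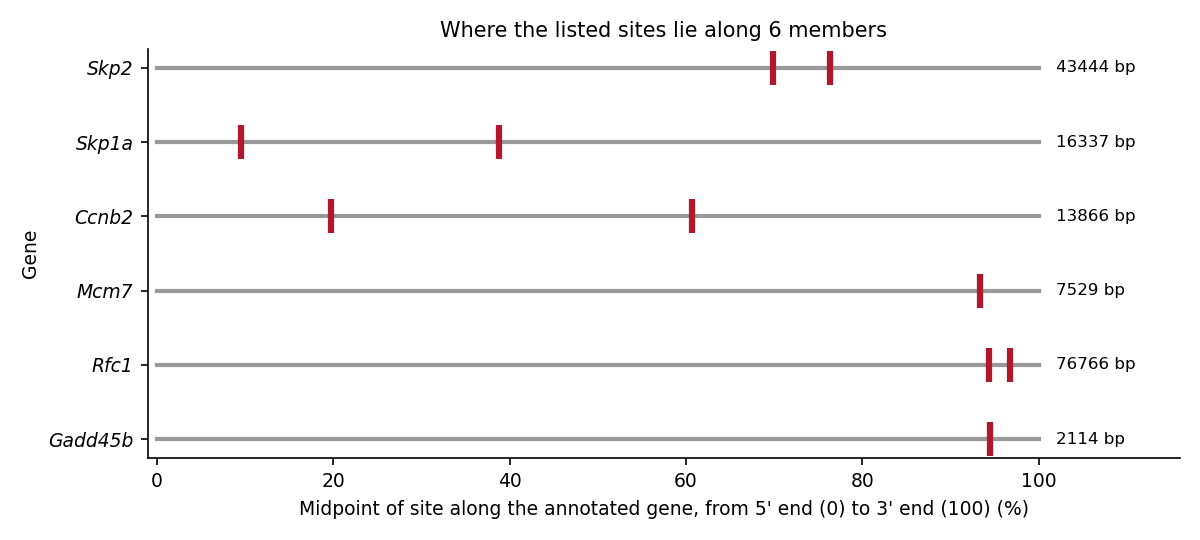
Midpoints of the member sites (vertical ticks) along the annotated gene, from the 5′ end at 0% to the 3′ end at 100%, for the 6 members with a strand in the RefSeq windows, with gene length at the right. The sites of Mcm7, Rfc1 and Gadd45b lie beyond 90%, and those of Skp2, Skp1a and Ccnb2 between 9.52 and 76.3%.

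Along the 6 genes with a known strand, 4 of 10 sites had their midpoint in the last 10% of the gene, those of Mcm7 (93.4%), Rfc1 (96.7 and 94.4%) and Gadd45b (94.5%). Over all control IP sites with a strand the share there was 24.2% of 574. The Rfc1 sites are a pair within a gene and were counted separately. Mcm4 and Cdkn1c, without a strand, were left out, and the shares were not tested. All 29 member entries lay within the interval of their gene, and no other gene of the table overlapped any of them.

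**Figure D4:**
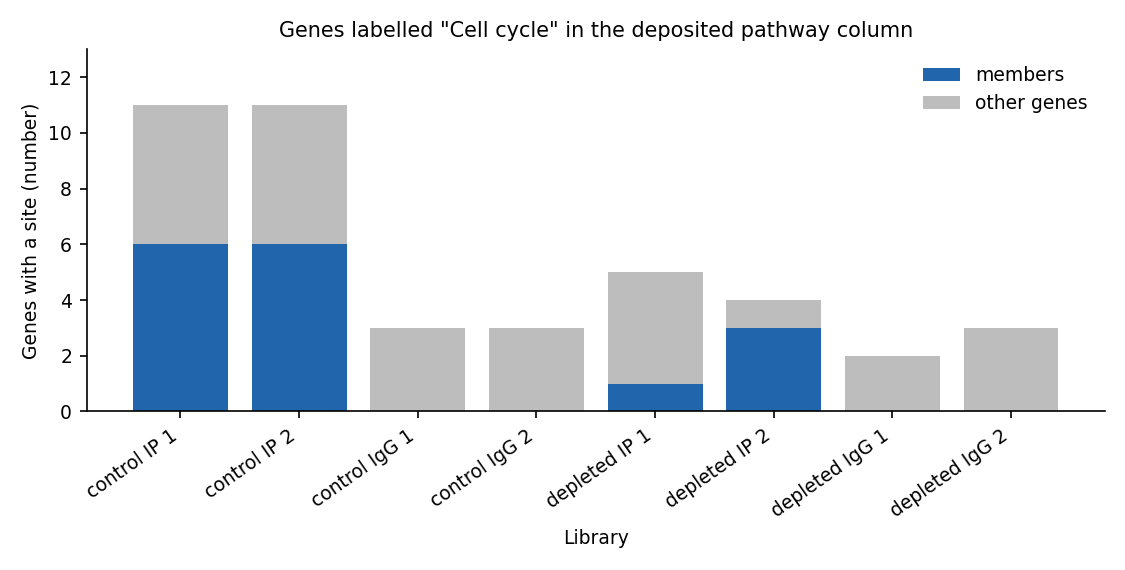
Number of genes with a site (y axis) whose deposited pathway label is cell cycle, for each of the 8 libraries, with members in blue and other genes in grey stacked on them. Each control IP list holds 6 members and 5 other genes, and no IgG list holds a member.

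Of 107 further cell cycle and replication genes in a list drawn up by name, which cover the origin, helicase, polymerase, cyclin, inhibitor and checkpoint genes, 106 had no site in any of the 8 lists, as was so for 20947 of the 21900 protein-coding genes of the gene table. In shares, 0.935% of these pathway genes and 4.35% of the protein-coding genes had a site. The 8 members, which all had a site and were named with the lists known, had been taken out of the pathway list. That removal lowers the share of the pathway genes. The shares therefore cannot say whether cell cycle genes had sites less often than other genes. The pathway gene with a site was Orc3, a subunit of the origin recognition complex, with folds of 2153 and 2171 at 2 sites in depleted IP 1 and 22.3 in depleted IgG 2, at the second of these sites. By the pathway labels written in the deposited lists, a grouping chosen after the values were seen, 18 genes were labelled cell cycle, 7 of them members. These genes made up 2.56% and 2.55% of the genes of the control IP lists and 0.917% and 0.943% with control IgG. In the depleted lists the shares were 0.926% and 3.64% for IP and 0.535% and 0.794% for IgG. Members, named with the lists known, were 6 of the 11 labelled genes in each control IP list, so the shares test nothing. The other labelled genes numbered 5 and 5 in control IP and 3 and 3 in control IgG. In the depleted lists they numbered 4 and 1 with IP and 2 and 3 with IgG. The DNA replication label fell on 3 genes in all, Mcm4, Mcm7 and Rfc1.

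Of the 11 other genes with the cell cycle label 3 had the same presence as Skp1a, Mcm4, Rfc1 and Gadd45b. Mad1l1, a spindle checkpoint gene (folds of 5071 and 3272), the acetyltransferase gene Ep300 (237 and 144) and Ywhah, a 14-3-3 gene (138 and 92.8), were in both control IP lists alone. The cohesin gene Smc3 was in both control IP lists (263 and 832) and in 3 IgG lists. Ywhaz was in both control IP lists (67.1 and 59.1), control IgG 1 (3.73) and depleted IP 2 (553). Anapc5, a subunit of the anaphase-promoting complex, was in all 4 IgG lists and in depleted IP 1 (6651). Cdc16, another subunit, and Ywhab were in depleted IP 1 alone (472 and 541), and Sfn and Smc1a in control IgG 2 alone (33.7 and 42.1), while Orc3 is given above.

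Likeness to a member was taken as the same presence over the 8 lists and then the smallest mean difference of log10 highest fold over the lists that name both. Ccnb2, Skp2 and Mcm7 shared their presence with 32 other genes. Nearest to Ccnb2 were Cep85 (mean difference 0.139 over 3 lists) and Ankrd13b (0.267), and nearest to Skp2 were Cep85 (0.266) and Map3k14 (0.356). Mcm7 was nearest to Ptpn23 (0.301) and Rnf113a2 (0.337). The other 4 control members shared presence in the 2 control IP lists alone with 165 genes. Skp1a was nearest to Dlg5 (0.0203) and Minos1 (0.0428), Mcm4 to Odf2 (0.0426) and Elf2 (0.058), Rfc1 to Gga1 (0.0531) and Irs1 (0.0645), and Gadd45b to Nckap5 (0.0216) and Eif4ebp1 (0.0728). Cdkn1c, in 1 list, was left out of this measure.

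**Figure D5:**
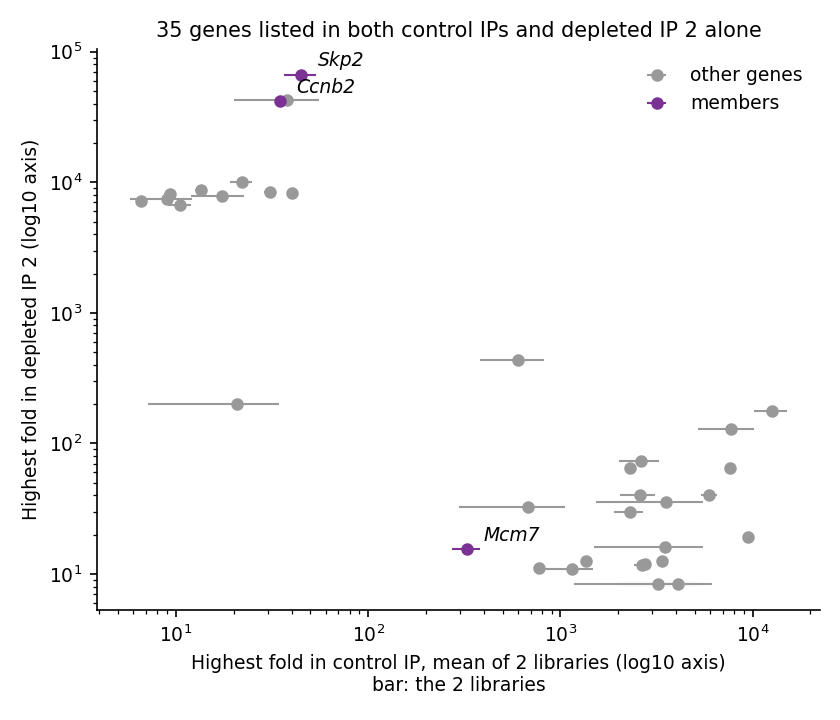
Highest fold per gene in depleted IP 2 (y axis) against the mean of the highest folds in the control IP lists (x axis, bars to the values of the 2 libraries), both on log10 axes, for the 35 genes listed in both control IPs and depleted IP 2 alone. Skp2 and Ccnb2 lie among 12 genes at 6705 or more on the y axis and 55.3 or less on the x axis, and Mcm7 among the other 23.

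The 35 genes with the presence of Skp2, Ccnb2 and Mcm7 fell into separate ranges of fold. In 12 of them, Skp2 and Ccnb2 included, the highest fold was from 6705 to 66494 in depleted IP 2, against 5.77 to 55.3 with control IP. In the other 23, Mcm7 included, it was between 8.33 and 436 in depleted IP 2, and it ran from 7.15 to 15084 in control IP. The boundary of 1000 was set after the values were seen. The high folds of Skp2 and Ccnb2 in the second depleted library were therefore shared with 10 further genes and were not particular to these members.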

How the data were processed

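RNA from RBM25 and IgG precipitates of mouse inner ear organoids was sequenced. Per the submitters' processing notes, reads were handled with cutadapt 1.9.3 and HISAT2 2.0.4, with mm8 named as build; the peak names in the lists begin with MACS, and the sources used here state neither the caller's settings nor its background library. The authors deposited 1 list of mRNA sites per library with the fold (a ratio over the caller's background), the false discovery rate in percent, a score computed from the log10 p-value, as a header says, and the width.

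Deposited starts count from 0 and are printed from 1. Of 2002 distinct sites with a gene in the RefSeq table (GRCm38.p6), 97.6% lay wholly inside it, so coordinates are read as GRCm38. Lists were matched to libraries by title. The 4 lists labelled Input repeat rows of the IP lists and were not used as measurements.

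A gene was present in a list with 1 or more sites. Counts were made with pandas 2.3.3 on Python 3.11.15, and exact permutation tests compared 2 against 2 libraries. The presence counts were tested on simulated data. Alternatives were regions merged at 1 bp or at 50% overlap, sites that reach the median fold, of 100 bp or more, or with a rate under 100%, each library left out, and a replicate block. Named genes were the 8 members, every gene with a site among 107 others of a fixed pathway list (Skp1, the current symbol of Skp1a, not counted), and the 2 genes nearest to each member. Members and lists were chosen with earlier results of these data known. Same-numbered libraries share a number in their titles only, and the lists name different sites in each group, so the pairing was not checked.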

Additional observations from a re-analysis of the deposited data

Results flagged for a closer look

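Sites of the members also appeared in the lists labelled Input, which no comparison used, while the IgG lists held 0. There were 11 member sites in control Input 1, 11 in control Input 2, 2 in depleted Input 1 and 5 in depleted Input 2. Each was identical in position and fold to an entry of the IP list of the same number, as were all 396, 399, 464 and 158 rows of these lists, so they add no measurement of the members.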

How the results depend on the processing

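No difference in members listed changed sign, and counts of presence have no direction. Of 57 alternative values for the counts and differences, 48 were scored as unchanged. A count was so scored within 1.5 times of its main value, and a difference if it kept its sign, whatever its size. Leaving out an IgG list could not move a value, since those lists held no member, so the 48 overstate stability. Keeping sites that reach their list's median fold left 2 members in both control IP and no control IgG list in place of 7. The control members in neither depleted IP list were 2 in place of 4, and 0 in place of 3 were in depleted IP 2. Sites of 100 bp or more left 3 in place of 7 and 0 in place of 3, since most member sites are narrower. With rates under 100% the control count was 5, as Ccnb2 and Skp2 dropped out of control IP, and 0 in place of 3 control members were left in depleted IP 2. The control members in neither depleted IP list, 4 in the main count, were then 5, and with the width filter 3. With the rate filter Mcm7 was added, since its entry in depleted IP 2 has a rate of 100%. Leaving out 1 library gave 7 to 7 for the control count. For the depleted count it gave 0 to 3 (3 without depleted IP 1, 1 without depleted IP 2). The control members in neither depleted IP list were then 4 to 7 (7 without depleted IP 2). Those in depleted IP 1 were 0 to 0 and those in depleted IP 2 were 3 to 3. The difference in members listed, control IP minus IgG, was 7 to 7 with 1 library left out, and 3, 3 and 5 with the filters on fold, width and rate. The difference of control minus depleted IP, 5 in the main count, was 4 to 6 with 1 library left out, and 2 (exact permutation p = 0.667), 2.5 and 3.5 with the same filters. With a replicate block, pairing libraries of the same number, they were 7 and 5, each with an exact sign-flip permutation p of 0.5, the smallest that 2 pairs allow. Both merged-region settings gave the same counts as genes. Of 24 values for single members 12 kept their number of IP lists within 1.5 times. Depth is unknown, so absence from a list sets no limit on binding.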
